A study of Rattus norvegicus with 8 samples.

Results

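Glo1 and Gapdh, a pair of genes that bear on how the brain makes and clears methylglyoxal (MGO), were followed in prefrontal cortex (PFC) and in hippocampus. All rats were adult male Sprague-Dawley animals, a strain that is kept outbred. They are 2 of the 31185 Ensembl gene IDs in the deposited table, ENSRNOG00000000541 for Glo1 and ENSRNOG00000018630 for Gapdh, and were chosen by ID for their roles. The symbols were assigned to these IDs when the pair was chosen. No Rnor_6.0 annotation was used here to check that assignment. The libraries cover 4 treatments in each tissue. Unstressed rats given saline are called Control + saline, and rats under the stress protocol that the labels abbreviate as CMS received saline, MGO or the plant flavonoid luteolin. Every group was thus given saline or a drug, and the drugs were injected intraperitoneally during the last 3 weeks of the stress protocol. Luteolin was given at 10 mg/kg/day. For MGO the labels disagree, with 5 mM/kg/day in one place and 100 mM/kg in another. Tissue was taken in week 7, and the protocol names 1 unstressed rat and 2 stressed rats but no luteolin rat. Each tissue and treatment has 1 library, so treatment, rat and library cannot be told apart and differences between treatments carry no p-value.

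MGO is a reactive dicarbonyl that forms mainly by spontaneous breakdown of the triose phosphates, the intermediates in the middle of glycolysis. Glyceraldehyde-phosphate dehydrogenase, encoded by Gapdh, oxidises one of those triose phosphates and so carries carbon past the point where MGO can form. Glyoxalase I, encoded by Glo1, is the rate-limiting enzyme of the glutathione-dependent pathway that turns MGO into D-lactate. In brain, Glo1 is known from rodent work on anxiety-like behaviour, and Gapdh is widely used as a reference gene because neurons and glia all express it. The libraries measure RNA only, so neither MGO nor the activity of either enzyme is given by these values.

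The deposited values are taken as FPKM, which divides the fragments of a gene by its length and by the fragments mapped in that library. A library's FPKM summed to between 300281 (CMS + luteolin, hippocampus) and 352740 (CMS + saline, PFC). Absolute depth is unknown. Steps between low values put depth at 0.855 (CMS + saline, PFC) to 1.34 (CMS + luteolin, hippocampus) times that of the Control + saline PFC library. The CMS + luteolin hippocampus library stood apart from the other hippocampus libraries. The robust SD of log2(FPKM + 1) differences between libraries was 0.41 to 0.44 in the 3 hippocampus pairs that hold it and 0.19 to 0.21 in the other 3. The CMS + saline libraries carry another leading code in their descriptions than the remaining 6. Markers of the tissues and of their cell types were not looked up, since the IDs were not paired with symbols here. The other enzymes of the pathway, such as Hagh and Tpi1, were for the same reason not analysed here.

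The sequences just upstream of both genes are shown as a description of the pair. Whether they bear on the RNA levels, which lay 5.41-fold to 9.22-fold apart within a library, was not tested. Each is the 250 bases before the annotated start in RefSeq (build GRCr8, matched by symbol, minus strand for both), written 5′ to 3′ with motif matches in capitals. The Glo1 window is chr20:8683081-8683330 and the Gapdh window is chr4:159652468-159652717.
Glo1: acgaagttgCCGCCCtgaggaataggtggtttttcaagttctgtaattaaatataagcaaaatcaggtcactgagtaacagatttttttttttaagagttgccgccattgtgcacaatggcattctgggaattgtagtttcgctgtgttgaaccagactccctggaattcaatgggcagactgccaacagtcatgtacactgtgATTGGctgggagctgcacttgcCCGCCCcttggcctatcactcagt
Gapdh: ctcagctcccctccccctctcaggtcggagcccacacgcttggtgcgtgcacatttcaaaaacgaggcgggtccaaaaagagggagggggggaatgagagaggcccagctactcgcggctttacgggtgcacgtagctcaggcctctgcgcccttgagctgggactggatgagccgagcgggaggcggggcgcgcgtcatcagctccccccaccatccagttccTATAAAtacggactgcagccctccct
Both strands were searched for the letters of the TATA box, which were TATAAA, and for those of the box named after its own letters, CCAAT. They were also searched for the GC box, written as GGGCGG, and for the core of the antioxidant response element, written as TGACNNNGC. No match overlapped another. The Gapdh window held 1 TATAAA match, from 26 to 21 bases before the start, and none of the other letters. The Glo1 window held 1 CCAAT match on the opposite strand, from 46 to 42 bases before the start, and 2 GGGCGG matches on the opposite strand, the nearer from 24 to 19 bases before the start. Over 33469 RefSeq windows of the same length, 12.9% held the TATA box letters, 34% the CCAAT box letters, 30.5% the GC box letters and 10.1% the antioxidant element core. The GC content was 45.6% for Glo1 and 63.6% for Gapdh, with a median of 51.2% over all windows. A match describes the letters and does not show that a factor binds there.

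Glo1, the clearing enzyme, was expressed at 110 to 205 FPKM. In PFC it stood at 110 FPKM in Control + saline, 146 in CMS + saline, 137 in CMS + MGO and 117 in CMS + luteolin. In hippocampus it stood at 195 FPKM in Control + saline, 200.1 in CMS + saline, 205 in CMS + MGO and 134 in CMS + luteolin. The 3 highest libraries were thus hippocampus libraries and the CMS + luteolin hippocampus library lay among those of PFC, so the tissues overlapped. From lowest to highest, the order was Control + saline, CMS + luteolin in PFC, CMS + luteolin in hippocampus, CMS + MGO and CMS + saline in PFC, then Control + saline, CMS + saline and CMS + MGO in hippocampus. With 1 library for each level, no spread is at hand to say which neighbours in this order differ. By rank, Glo1 was between the 271st and the 492nd highest value of a library and made up 0.035% to 0.0608% of its summed FPKM.

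Gapdh, the glycolytic enzyme, was among the most abundant transcripts in both tissues, between the 10th and the 31st highest value of a library and 0.267% to 0.395% of its summed FPKM. In PFC its level was 999.7 FPKM in Control + saline, 943 in CMS + saline, 1175 in CMS + MGO and 1077 in CMS + luteolin. In hippocampus its level was 1326 FPKM in Control + saline, 1083 in CMS + saline, 1132 in CMS + MGO and 1043 in CMS + luteolin. The Control + saline hippocampus library was the highest and the CMS + saline PFC library the lowest, and the remaining 6 libraries of both tissues were interleaved. RefSeq lists 91 further rat loci whose symbol marks them as Gapdh copies, 82 of them pseudogenes, against 2 for Glo1. How the authors' counting divided reads between Gapdh and such copies is not given in the sources used here, so its level is uncertain to that extent.

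**Figure D1:**
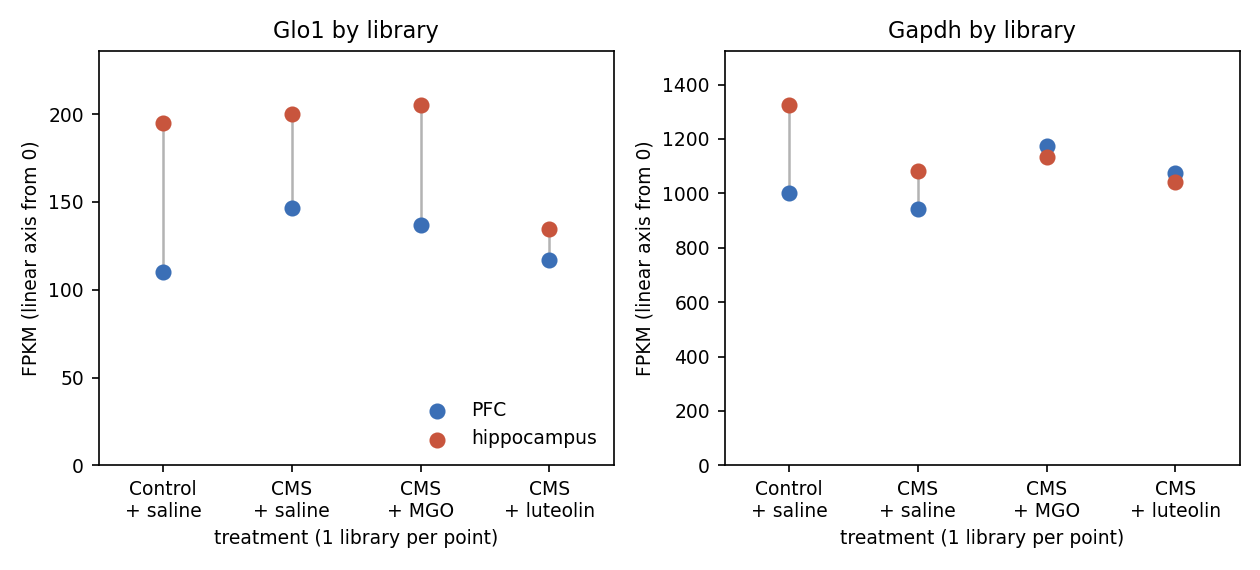
FPKM of Glo1 (left) and Gapdh (right) on linear axes from 0, by treatment, with 1 point per library in blue for PFC and red for hippocampus and a grey line joining the tissues of a treatment. Glo1 is higher in hippocampus in all 4 treatments, with the shortest line in CMS + luteolin, while the Gapdh points change order between treatments.

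The tissues were compared over the 4 treatments. The mean of Glo1 was 184 ± 33.1 FPKM over the hippocampus libraries and 128 ± 17.1 FPKM over those of PFC (SD, n = 4), and it was the higher in hippocampus in 4 of 4 treatments. On the log2(FPKM + 1) scale the difference, hippocampus minus PFC, was 0.51 (SE 0.13, 95% interval 0.19 to 0.84). It narrowly missed the threshold of 0.05 (limma with treatment as a block, adjusted p = 0.0558 over 12155 genes). The difference passed when the libraries were rescaled to equal sums of 1000000 (limma adjusted p = 0.0354). With libraries scaled by their median ratio over genes, it did not pass (limma adjusted p = 0.0675). At the same threshold 1937 genes, or 15.9%, differed between the tissues, and Glo1 ranked 2117 by p. At least as large a difference in either direction was found for 22.9% of the genes.

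By treatment, the Glo1 difference between hippocampus and PFC was 0.82 in Control + saline, 0.45 in CMS + saline, 0.58 in CMS + MGO and 0.20 in CMS + luteolin, all in log2(FPKM + 1). In FPKM, Glo1 was 77.4% higher in hippocampus in the control rat and 15.1% higher in CMS + luteolin. Without the CMS + luteolin pair, the mean difference was 0.62 (limma adjusted p = 0.0607), and the remaining hippocampus libraries, at 195 FPKM and above, no longer overlapped those of PFC. That pair holds the only hippocampus library within the PFC range, so this separation was fixed by the choice of pair. Among libraries with the same description code, which leaves out CMS + saline, the mean difference was 0.53 (limma adjusted p = 0.156). In tissue RNA, more cells of a type that expresses Glo1 and more Glo1 RNA per cell cannot be told apart.

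The mean of Gapdh was 1146 ± 125 FPKM over the hippocampus libraries and 1049 ± 100.5 FPKM over those of PFC (SD, n = 4). The difference was 0.13 in log2(FPKM + 1) (SE 0.13, 95% interval -0.20 to 0.45, limma adjusted p = 0.519). It was higher in hippocampus in Control + saline, by 0.41, and in CMS + saline, by 0.20. In the drug-treated rats the hippocampus minus PFC difference was -0.05 with MGO and -0.05 with luteolin. Some 73.4% of the genes tested differed between the tissues by at least as much as Gapdh did on average. The interval leaves room for a difference of the size seen for many genes, so the tissues are not shown to be alike in Gapdh.

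**Figure D2:**
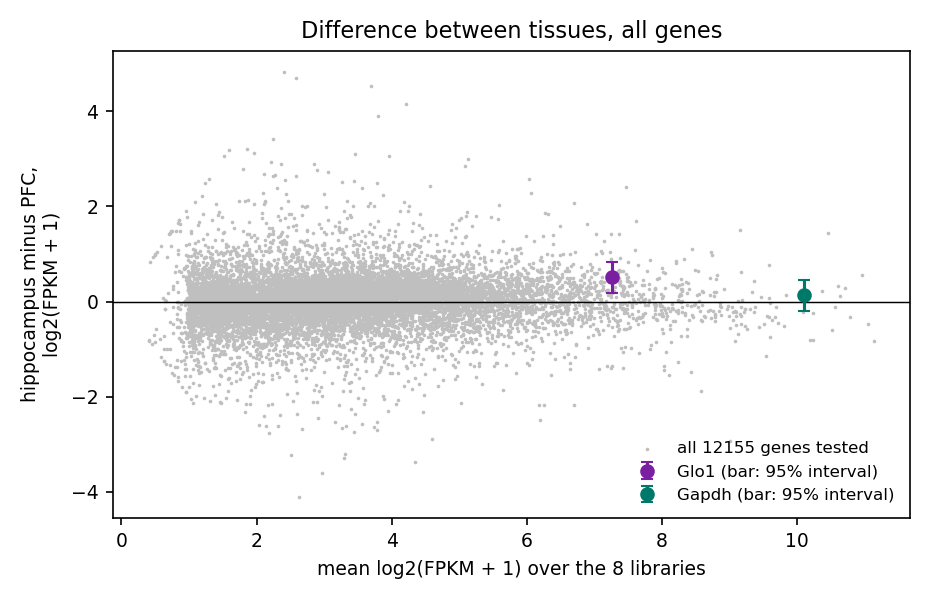
Difference between hippocampus and PFC in log2(FPKM + 1) against the mean log2(FPKM + 1) over 8 libraries, for 12155 genes in grey, with Glo1 in purple and Gapdh in green and their 95% intervals from limma as bars. The Glo1 interval runs from 0.19 to 0.84 and lies above 0, and the Gapdh interval runs from -0.20 to 0.45.

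The level of Glo1 relative to Gapdh within a library needs no scaling between libraries. In PFC, Glo1 stood at 11% of the Gapdh FPKM in Control + saline, 15.5% in CMS + saline, 11.7% in CMS + MGO and 10.9% in CMS + luteolin. In hippocampus it stood at 14.7% in Control + saline, 18.5% in CMS + saline, 18.1% in CMS + MGO and 12.9% in CMS + luteolin. In PFC the CMS + saline library was thus above the other 3, which lay close together, and in hippocampus the CMS + saline and CMS + MGO libraries were the highest. The ratio was higher in hippocampus in all 4 pairs, by 0.39 on the log2 scale on average (SD 0.18, n = 4 pairs). In an exact two-sided permutation test, 2 of the 16 ways to sign the 4 differences gave a mean at least as far from 0. That is the fewest that 4 pairs allow, so this paired test cannot reach the threshold.

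**Figure D3:**
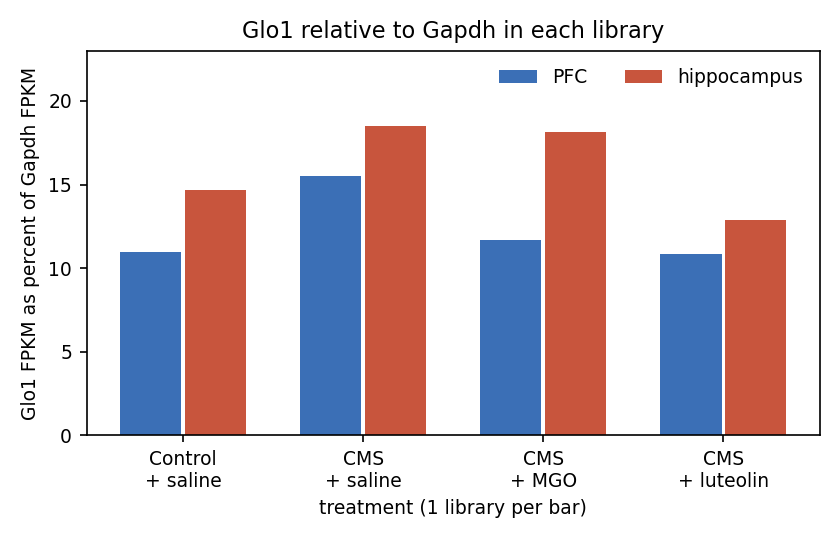
Glo1 FPKM as a percent of Gapdh FPKM in each library (bars from 0), by treatment, in blue for PFC and red for hippocampus. The hippocampus bar is the taller in all 4 treatments, and CMS + saline has the tallest bar of each tissue, at 15.5% and 18.5%.

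Stress was examined by setting CMS + saline against Control + saline, and none of the differences between treatments below could be tested. In PFC, Glo1 went from 110 FPKM in the control to 146 FPKM under stress, a difference of 0.41 in log2(FPKM + 1), and 23.1% of genes differed by at least as much. Gapdh went from 999.7 to 943 FPKM in the same libraries, a difference of -0.08. With libraries rescaled to equal sums these PFC differences became 0.25 for Glo1 and -0.25 for Gapdh, since the CMS + saline PFC library has the highest summed FPKM. In hippocampus, Glo1 was nearly level at 195 and 200.1 FPKM, a difference of 0.04, while Gapdh went from 1326 to 1083 FPKM, a difference of -0.29 that 22% of genes matched or exceeded in size. The ratio of Glo1 to Gapdh was therefore higher under stress in both tissues, by 0.50 in PFC and 0.33 in hippocampus on the log2 scale. In PFC the share of Glo1 and of Gapdh in this depends on the scaling, and in hippocampus Gapdh had the larger difference under each scaling run. Stress and the description code cannot be told apart in these libraries.

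CMS + MGO was compared with CMS + saline, which asks how the gene that clears MGO and a glycolytic gene stood in a rat given MGO. The description code differs between these libraries as well, so MGO and the code cannot be told apart here. In PFC, Glo1 stood at 137 FPKM with MGO and 146 FPKM with saline, a difference of -0.10 in log2(FPKM + 1) that ranged from -0.18 to -0.01 under other scalings. Gapdh stood at 1175 and 943 FPKM, a difference of 0.32. In hippocampus, Glo1 stood at 205 FPKM with MGO and 200.1 FPKM with saline, and Gapdh at 1132 and 1083 FPKM, differences of 0.04 and 0.06. The median over all genes was 0.07 in PFC and 0.00 in hippocampus for this comparison. At least as large a difference was found for 77.4% of genes as for Glo1 in PFC, for 84.7% as for Glo1 in hippocampus and for 37.4% as for Gapdh in PFC. Against the unstressed control, within the same description code, Glo1 with MGO differed by 0.32 in PFC and 0.08 in hippocampus. Gapdh differed from that control by 0.23 in PFC (0.15 with equal sums) and by -0.23 in hippocampus.

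CMS + luteolin was compared with CMS + saline too, so both drug comparisons share those libraries. Luteolin and the description code cannot be told apart in this comparison. Glo1 was lower with luteolin in both tissues, at 117 against 146 FPKM in PFC, a log2(FPKM + 1) difference of -0.32, and at 134 against 200.1 FPKM in hippocampus, a difference of -0.57. In hippocampus 21.7% of genes differed by at least as much in this comparison. Gapdh differed by 0.19 in PFC and -0.05 in hippocampus. With libraries rescaled to equal sums, the Glo1 differences were smaller, at -0.16 in PFC and -0.41 in hippocampus, and those of Gapdh became 0.35 in PFC and 0.11 in hippocampus. In hippocampus, the Glo1 value with luteolin also lay below Control + saline, by a difference of -0.53, and below CMS + MGO, by one of -0.61. In PFC the corresponding differences were 0.09 from Control + saline and -0.23 from CMS + MGO. The low hippocampus value came in the library that stood apart from the other 3 of its tissue across genes, and the part of this in the Glo1 value was not tested.

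Over 6 comparisons in each of 2 tissues, 0 of 24 differences of Glo1 and Gapdh reached 2-fold, that is 1 in log2(FPKM + 1). The share of all genes that did was 6.83% for CMS + saline against Control + saline, 6.51% for MGO and 6.52% for luteolin against CMS + saline in PFC. The corresponding shares in hippocampus were 5.66%, 6.01% and 7.52%. Against Control + saline, they were 6.86% for MGO and 6.3% for luteolin in PFC, and 5.68% and 6.61% in hippocampus. Between the drugs they were 6.37% in PFC and 8.11% in hippocampus. The sizes ran from 0.04 to 0.61 for Glo1 and from 0.05 to 0.35 for Gapdh. The comparisons share libraries, so they are not 24 separate measurements.

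**Figure D4:**
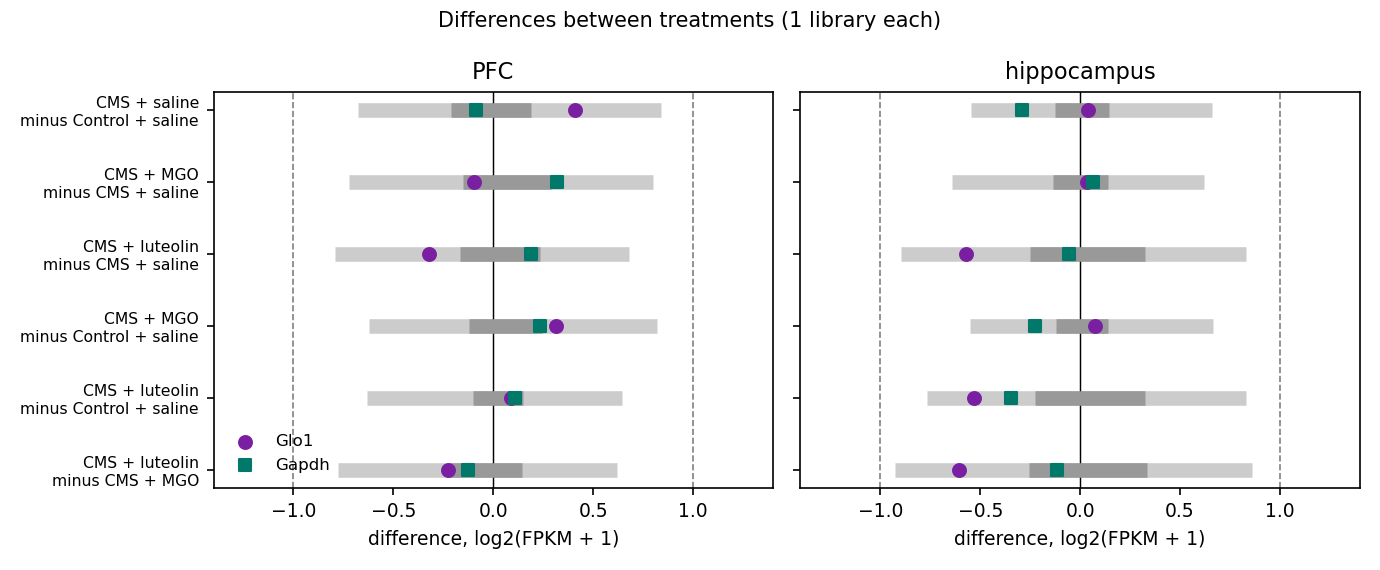
Differences in log2(FPKM + 1) between treatments in PFC (left) and hippocampus (right), with Glo1 as purple circles and Gapdh as green squares, 1 library on each side of a comparison. Light grey bars span the middle 90% and dark grey bars the middle 50% of 12155 genes, dashed lines mark 2-fold, and all 24 points lie inside the dashed lines.

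Among the 4 libraries of a tissue, Gapdh varied less than Glo1 in unscaled FPKM. The SD of log2(FPKM + 1) over the treatments was 0.14 for Gapdh and 0.19 for Glo1 in PFC, and 0.15 and 0.29 in hippocampus. In PFC this order depended on the scaling. As a share of summed FPKM, Gapdh ran from 0.267% to 0.354% there and Glo1 from 0.035% to 0.0415%, the narrower range in proportion. In hippocampus Gapdh kept the narrower range, at 0.323% to 0.395% against 0.0448% to 0.0608% for Glo1. The comparison with other genes used unscaled values only. Of the 572 genes that averaged 100 FPKM or more, 27.4% had a smaller SD than Gapdh in PFC and 25.2% in hippocampus. For Glo1 the shares were 45.6% in PFC and 53.1% in hippocampus. In unscaled FPKM, Gapdh thus held a steadier level within a tissue than most abundant genes. Its highest library still exceeded its lowest by 1.25-fold in PFC and 1.27-fold in hippocampus, against 1.33-fold and 1.53-fold for Glo1. Over all 8 libraries, where the difference between tissues adds to the range, the values were 1.41-fold for Gapdh and 1.87-fold for Glo1.

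The genes whose pattern over the 8 libraries was most like that of each member were found by Pearson's r of log2(FPKM + 1), as a description with no test. These IDs were not paired with symbols here. ENSRNOG00000052730 was most like Glo1 (r = 0.993), at 61.3, 90.5, 81.7 and 73 FPKM in PFC and 119, 122, 127 and 77.9 FPKM in hippocampus for Control + saline, CMS + saline, CMS + MGO and CMS + luteolin. ENSRNOG00000032630 followed (r = 0.992), and ENSRNOG00000007133 and ENSRNOG00000000940 were the most opposite (both r = -0.994 to the third decimal). ENSRNOG00000000940 had 21.3 FPKM in Control + saline PFC, where Glo1 was lowest, and 5.81 FPKM in CMS + MGO hippocampus, where Glo1 was highest. For Gapdh the closest were ENSRNOG00000050630 (r = 0.948) and ENSRNOG00000022472 (r = 0.945), and the most opposite ENSRNOG00000019093 (r = -0.953) and ENSRNOG00000058856 (r = -0.951). These opposite IDs lay near the filter of 1 FPKM, at 0.59 to 1.31 FPKM and 0.53 to 2.22 FPKM. Of 12154 other genes, 316 had r of at least 0.9 with Glo1 and 277 had r of -0.9 or below, whereas 12 and 8 did with Gapdh. The points share tissue, rats and the CMS + luteolin hippocampus library.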

How the data were processed

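RNA-seq values of Glo1 and Gapdh were taken from 1 deposited table with 8 libraries, all matched to samples by title. The submitters' processing notes list the build Rnor_6.0 and the tools StringTie 1.2.4, HISAT2 2.0.4 and FastQC 0.11.5, without roles or settings. The values are treated as the authors' FPKM. That unit was inferred from the tools and the deposited values, which are not whole and sum to different totals. In 4681 rows the values have more than 6 decimals, but not in those of Glo1 and Gapdh. How isoforms were combined is not given in the sources used here. A symbol table of 47357 RefSeq genes matched 0 of 31185 IDs, so 15 gene lists and the cell type markers were not evaluated. Sequences are from RefSeq tables (GRCr8), in which both symbols were found.

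Differences were computed on log2(FPKM + 1). The 12155 genes that averaged 1 FPKM or more were kept, both members included. Tissues were compared in R 4.3.3 by limma 3.58.1 with a variance trend and a term for each treatment (two-sided, 3 residual degrees of freedom, Benjamini-Hochberg adjustment over all 12155 genes, threshold 0.05). The pairing comes from the protocol, which takes both tissues from each rat it names. For luteolin it is by treatment only. Deviations of paired libraries from their tissue means correlated across genes with r = 0.0458 to 0.175. Since no treatment is replicated, the p-values reflect variation of the tissue difference between treatments, and SDs include treatment. The Glo1 to Gapdh ratio used no pseudocount and an exact permutation test. Treatments were compared with no test. The fit was tested on simulated data. Other steps ran in Python 3.11.15 (matplotlib 3.10.9, numpy 2.4.6, pandas 2.3.3). Alternatives were other scalings, pseudocounts, filters and fits, and leaving out each treatment pair. Named genes were Glo1, Gapdh and the 2 IDs most like and most opposite to each. The members, lists and tests were chosen with earlier results of these data known.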

Additional observations from a re-analysis of the deposited data

Results flagged for a closer look

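Glo1 in the CMS + luteolin hippocampus library, at 134 FPKM, lay far from the other 3 hippocampus libraries, which held 195 to 205 FPKM. The gap to its nearest neighbour was 0.852 of the whole range, above Dixon's critical value for 4 values. That value assumes replicates of the same condition, whereas the 4 values come from different treatments. Of 6 groups of 4 values, 1 was past it, where chance puts about 1 in 20 for a single group. The ratio groups are formed from the other groups, so 1 among these 6 is not shown to be an excess. Glo1 as a percent of Gapdh in the CMS + saline PFC library, at 15.5%, came just under it, at 0.828.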

How the results depend on the processing

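Glo1 was higher in hippocampus than in PFC under all alternatives run, by 0.50 to 0.52 in log2(FPKM + 1) with other scalings, filters, pseudocounts and fits, and by 0.41 to 0.62 when each treatment pair was left out in turn. It passed the threshold only with libraries rescaled to 1000000 (0.52, limma adjusted p = 0.0354) or, in an alternative chosen after seeing the data, to the mean sum (0.52, adjusted p = 0.0353). Its adjusted p reached 0.0753 with no filter and was 0.0607 to 0.166 without a pair. With no treatment block, so without the pairing, it was 0.0632 for Glo1 and 0.508 for Gapdh, and the exact permutation p of the ratio was 0.0857, so the block changed none of these calls. Gapdh differed by 0.11 to 0.13, and by 0.03 to 0.19 without a pair, never past the threshold. The ratio differed by 0.31 to 0.44 without a pair. The 1937 genes that differed between tissues became 243 without the Control + saline pair, 499 without CMS + saline, 623 without CMS + MGO and 838 without CMS + luteolin, with fewer libraries in each fit. Other alternatives gave 1368 to 2391. None of 24 treatment differences reached 2-fold under any scaling or pseudocount run. Of 96 values of these differences under scalings and the other pseudocount, 86 moved by less than the SD over the tissue's libraries and 10 by more, all of Gapdh with equal sums. These were CMS + saline against Control + saline in PFC (-0.08 to -0.25), CMS + luteolin against CMS + saline in PFC (0.19 to 0.35) and CMS + luteolin against Control + saline in hippocampus (-0.35 to -0.19). The sign turned for CMS + luteolin in hippocampus against CMS + saline (-0.05 to 0.11) and against CMS + MGO (-0.12 to 0.05). Equal sums shifted both genes by nearly the same amount, so the split between the genes follows the smaller SD of Gapdh. That SD was 0.14 in PFC and 0.15 in hippocampus for Gapdh, against 0.19 and 0.29 for Glo1. Glo1 moved too, for example from -0.32 to -0.16 for CMS + luteolin against CMS + saline in PFC. Taken as the ratio to Gapdh, 5 of 12 Glo1 differences moved by more than the SD of Glo1 over the tissue's libraries and 7 by less. An example of the 5 is CMS + MGO against CMS + saline in PFC (-0.10 to -0.41). Depth could not be turned into a counting error, since reads per gene are unknown.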
